A study of Mus musculus with 8 samples.

Results

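The genes described here are 10 genes by which tuft cells of the mouse intestine are recognised: Pou2f3, Gfi1b, Trpm5, Plcg2, Dclk1, Avil, Alox5ap, Alox5, Ltc4s and Ptgs1. They were chosen by symbol, as the lineage factors, chemosensory genes and eicosanoid genes of this cell type, and all 10 were found among the 23318 Ensembl genes of the files. RNA had been sequenced from small intestinal epithelial cells of mice, sorted on the surface glycoprotein CD24, with depletion of cells that carry CD45, an antigen of leukocytes, or bind the Ulex europaeus lectin. There were 4 libraries of the CD24Mid fraction, also called CD24low, with title numbers 1, 3, 5 and 7, and 4 of the CD24Neg fraction, with title numbers 2, 4, 6 and 8. The series design calls them biological replicates. It gives no strain, age or treatment, and library numbers are not shared between the fractions. The comparison addressed here is how the transcripts of a rare epithelial cell type were distributed between these fractions.

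Tuft cells are rare epithelial cells with a bundle of long microvilli that taste the contents of the gut lumen. Ligands such as succinate act on G protein-coupled receptors, a phospholipase C releases calcium from the endoplasmic reticulum, and calcium opens the cation channel TRPM5. The cells then release interleukin 25, acetylcholine and lipid mediators, the cysteinyl leukotrienes and prostaglandin D2, which act on immune cells of type 2 responses to worms and protists. A subset of tuft cells is known to carry CD45, the antigen used here for depletion, and tuft cells are known to carry CD24. Cells removed by the CD45 or Ulex lectin depletion, or outside the CD24Mid and CD24Neg gates, are in neither fraction. The share of tuft cells that was sequenced is therefore not known.

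Values are normalised expression values per gene, already scaled between libraries by the authors. They are not divided by gene length, so levels of different genes are not compared below. Depth, estimated from the even steps between the lowest values, was 17.5 to 19.6 M reads in CD24Mid libraries and 12.5 to 20.7 M in CD24Neg libraries. A single read was worth 0.583 to 0.697 in the CD24Mid libraries but 1.07 to 1.77 in CD24Neg, so low values were less precise in CD24Neg. Mitochondrially encoded genes held 8.03 to 9.10% of the summed values in CD24Mid and 28.3 to 37.4% in CD24Neg. Cd24a, which encodes the antigen used for sorting, was at 2246 or more in every CD24Mid library and at 563 or less in every CD24Neg library, as labelled. Vil1, which encodes the epithelial microvillus protein villin, was at 6539 or more in every library. In sorted bulk cells, fewer cells of a type and less RNA per cell cannot be told apart.

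Of the 10 tuft cell genes, 2 rose and 1 fell in CD24Neg, 3 were tested and not called, and 4 were too low to be tested. Ltc4s was 17.8-fold higher in CD24Neg, Plcg2 1.44-fold higher, and Pou2f3 was lower, while Trpm5, Avil and Alox5ap did not pass. A gene was tested where its value was at least 10 in at least 4 libraries, which held for 12906 genes, and called at an adjusted p under 0.05 in limma (Benjamini-Hochberg over these genes). In this comparison 68.3% of all tested genes were called, 34% higher and 34.3% lower, so 3 of 6 tested tuft cell genes is not a share above the background. The median log2 difference of the 6, CD24Neg minus CD24Mid, was 0.64, beside -0.02 over all tested genes. Among the 6, Ltc4s and Pou2f3 had separate ranges in the fractions, as had 63.8% of all tested genes. Pou2f3 passed the filter only through CD24Mid, where it was high. Another scaling, to library totals without the 20 most abundant genes, shifted the median of all genes by -0.43 and turned the direction of none of the 6, but ended the Plcg2 call and added one for Alox5ap.

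**Figure D1:**
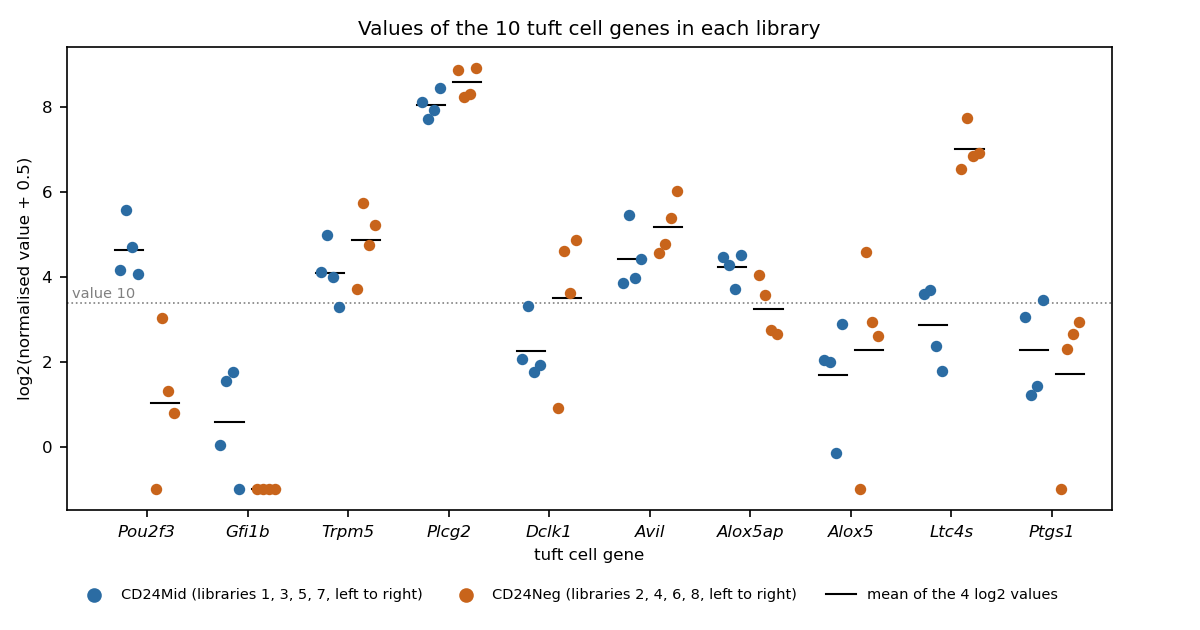
Normalised values of the 10 tuft cell genes as log2(value + 0.5), with 1 point per library, CD24Mid in blue and CD24Neg in orange, a black line at the mean of the 4 log2 values, a dotted line at a value of 10, and points at -1 for libraries in which the gene is listed at 0. The orange points of Ltc4s lie above all blue points and those of Pou2f3 below them, while the colours overlap for the other 8 genes.

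The lineage factors were low in both fractions, and Pou2f3 was lower in CD24Neg. Pou2f3 (ENSMUSG00000032015) encodes the POU domain transcription factor without which tuft cells do not form. Its value was 17.3, 47.4, 25.3 and 16.2 in CD24Mid libraries 1, 3, 5 and 7, and 0, 7.62, 1.97 and 1.24 in CD24Neg libraries 2, 4, 6 and 8. Every CD24Mid library lay above every CD24Neg library. The log2 difference was -3.59 (SE 0.79, limma adjusted p = 0.00232, n = 4 per fraction). The CD24Neg values stood for about 0, 5, 2 and 1 reads, so no fold is given. The log2 difference ranged from -4.32 to -2.44 over the alternatives and depends on the pseudocount. Without CD24Neg library 2, where Pou2f3 is listed at 0, it was -2.90, and without CD24Neg library 4, the highest of its fraction, -4.25.

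Gfi1b (ENSMUSG00000026815), a zinc finger repressor found in tuft cells and in blood lineages, stood at the limit of detection. It was at 0.531, 2.44, 2.90 and 0 in the CD24Mid libraries, about 1, 4, 5 and 0 reads, and is listed at 0 in all 4 CD24Neg libraries. The ranges touch at 0. An exact two-sided permutation test of the log2 values gave p = 0.143 and limma without a filter on low values an adjusted p of 0.0856. The smallest p that 4 against 4 libraries allow in the exact test is 0.0286.

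Among the chemosensory genes, the effector channel Trpm5 was not called and the phospholipase gene Plcg2 rose slightly. Trpm5 (ENSMUSG00000009246) was at 16.9, 31.1, 15.6 and 9.25 in CD24Mid and at 12.6, 53.1, 26.4 and 36.9 in CD24Neg. CD24Neg libraries 2 and 6 lay within the CD24Mid range, and libraries 4 and 8 above it. The log2 difference was 0.76 (SE 0.49, adjusted p = 0.192), and without CD24Neg library 2 it was 1.15 and passed (limma adjusted p = 0.0375). In the GENCODE M21 annotation 220 of the 6398 exonic bases of Trpm5 are also exonic in Tssc4, on the opposite strand. Tssc4 itself was lower in CD24Neg (313 ± 31.6 against 237 ± 14.9, SD, n = 4). No source used here says that counting used strand, so reads from the shared bases cannot be told apart.

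Plcg2 (ENSMUSG00000034330) encodes phospholipase C gamma 2, an enzyme of tuft cells that also acts below antigen and Fc receptors of B cells, natural killer cells and mast cells. Its value was 276, 209, 242 and 350 in CD24Mid and 464, 300, 316 and 483 in CD24Neg. CD24Neg libraries 2 and 8 lay above every CD24Mid library, while libraries 4 and 6 lay within the CD24Mid range. The log2 difference was 0.53 (SE 0.21, limma adjusted p = 0.0423). The call ended when CD24Mid library 1, 3 or 5 or CD24Neg library 2 or 8 was left out (adjusted p from 0.0660 to 0.119). Without CD24Neg libraries 2 and 8 together, left out after their T cell markers had been seen, the log2 difference was 0.24 (limma adjusted p = 0.324). Both held the highest Plcg2 values of CD24Neg, so leaving them out lowers the difference whatever its cause.

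The taste cascade around these members was largely at or near 0. Of 12 further genes of the cascade 4 could be tested, of which 1 rose, none fell and 3 were not called, with a median log2 difference of 0.41. Over all tested genes 34% were called higher and 34.3% lower. The gene that rose, Gnai2, encodes a widely expressed inhibitory G protein subunit (1740 ± 198 against 2227 ± 151, adjusted p = 0.0121). Itpr3, the inositol trisphosphate receptor that releases calcium in taste and tuft cells but is also found in other epithelial cells, was at 3522 ± 543 and 3031 ± 313 (adjusted p = 0.193). Plcb2, the phospholipase C of taste cells, was at 18.6 ± 8.03 and 27.5 ± 15.5 (adjusted p = 0.441). Tas1r3, a subunit of sweet and umami receptors, was at 19.6 ± 4.97 and 31.3 ± 7.24 (adjusted p = 0.0703). The remaining 8 were too low to test, among them the gustducin subunit Gnat3, listed at 0 in 5 libraries and at no more than 1.05 in any.

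The structural markers Dclk1 and Avil had their highest values in CD24Neg, without a difference that passed. Dclk1 (ENSMUSG00000027797), a microtubule-associated kinase and the most used tuft cell marker of the mouse gut, was at 3.71, 9.40, 2.86 and 3.27 in CD24Mid. In CD24Neg it was at 1.37, 23.9, 11.8 and 28.5, that is about 1, 15, 11 and 19 reads. CD24Neg library 2 lay below all CD24Mid libraries and the other CD24Neg libraries above them all. It reached 10 in 3 libraries and was therefore not tested across genes. The log2 difference of 1.23 gave an exact two-sided permutation p of 0.229, and limma without a filter on low values an adjusted p of 0.358. Avil (ENSMUSG00000025432) encodes advillin, an actin-binding protein of the tuft microvilli and of sensory neurons. It was at 13.9, 43.7, 15.1 and 20.9 in CD24Mid and at 23.1, 26.7, 41.0 and 64.1 in CD24Neg. The ranges overlapped through CD24Mid library 3. The log2 difference was 0.75 (SE 0.44, limma adjusted p = 0.152), and 1.10 without CD24Mid library 3 (adjusted p = 0.0390). Tsfm, on the opposite strand, shares 165 of the 3398 exonic bases of Avil and was lower in CD24Neg (530 ± 54.3 against 262 ± 89.2).

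Since Pou2f3 encodes a POU factor, the RefSeq promoters of the members (GRCm38.p6) were searched for the octamer that POU factors bind, ATGCAAAT, and for its first 7 letters, ATGCAAA, on either strand. Every octamer match is also a match of the shorter word. The 250 bases before the start site were read for 9 promoters of 8 members. Pou2f3 and Alox5ap had no entry in the table. None of the 9 held the octamer, which 1.60% of 32851 promoters held. The shorter word was in 1 of the 9, that of Avil, where 4.12% of all promoters held it. Avil had it at 115 bases before the start site on the opposite strand and at 15 bases before it on the same strand. The Avil promoter is shown for these matches, in capitals, and that of Ltc4s because this member differed most and held none. The Avil window is chr10:127000459-127000708 on the plus strand and the Ltc4s window chr11:50238533-50238782 on the minus strand, and both are written 5′ to 3′ along the gene.
Avil: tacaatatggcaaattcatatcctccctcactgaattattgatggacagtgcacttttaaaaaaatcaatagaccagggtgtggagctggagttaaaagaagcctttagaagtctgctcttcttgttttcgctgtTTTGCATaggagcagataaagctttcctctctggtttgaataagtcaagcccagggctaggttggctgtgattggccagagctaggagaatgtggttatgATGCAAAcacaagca
Ltc4s: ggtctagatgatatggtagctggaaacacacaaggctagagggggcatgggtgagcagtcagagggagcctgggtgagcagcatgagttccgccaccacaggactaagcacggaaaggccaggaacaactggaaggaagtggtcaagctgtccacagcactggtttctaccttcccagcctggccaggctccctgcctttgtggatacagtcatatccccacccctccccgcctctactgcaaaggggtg
These matches are letters in a window and no measure of binding.

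The eicosanoid members did not move together. Alox5ap (ENSMUSG00000060063), whose product FLAP presents arachidonic acid to 5-lipoxygenase, was at 21.6, 18.8, 12.7 and 22.2 in CD24Mid. In CD24Neg it was at 15.9, 11.4, 6.21 and 5.78. These values stood for about 32, 29, 22 and 39 reads in CD24Mid but 9, 7, 6 and 4 in CD24Neg. Only CD24Neg library 2 lay above the lowest CD24Mid library. The log2 difference was -0.99 (SE 0.41, limma adjusted p = 0.0536). It passed without CD24Mid library 5 (adjusted p = 0.0468) or without CD24Neg library 2 (adjusted p = 0.0210). Alox5 (ENSMUSG00000025701), the 5-lipoxygenase gene that starts leukotriene synthesis, was at 3.61, 3.46, 0.395 and 6.95 in CD24Mid and at 0, 23.4, 7.13 and 5.60 in CD24Neg. Those values were about 1 to 12 reads in CD24Mid and 0 to 14 in CD24Neg, and the ranges overlapped (exact two-sided permutation p = 0.686, adjusted p = 0.779 in limma without a filter). Ptgs1 (ENSMUSG00000047250), the constitutive cyclooxygenase of prostaglandin synthesis, was at 7.77, 1.82, 2.21 and 10.45 in CD24Mid and at 0, 4.43, 5.76 and 7.11 in CD24Neg. The ranges overlapped, and the exact two-sided permutation p was 0.714 (adjusted p = 0.720 in limma without a filter).

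Ltc4s (ENSMUSG00000020377), the synthase that joins glutathione to leukotriene A4 to form leukotriene C4, differed most among the tested members. It was at 11.7, 12.4, 4.65 and 2.95 in CD24Mid, about 17, 19, 8 and 5 reads, and at 92.7, 213, 114 and 121 in CD24Neg. All CD24Neg libraries lay above all CD24Mid libraries, with more than 50 estimated reads in each. The log2 difference was 4.15 (SE 0.46, limma adjusted p = 2.52e-05), and 1.77% of tested genes had a log2 difference at least as high. It stayed between 3.74 and 4.62 and was called in all 17 alternatives. In the GENCODE M21 annotation 268 of its 1014 exonic bases are shared with Gm26542, an antisense gene not analysed here. The neighbouring gene Mgat4b was 1.41-fold lower in CD24Neg (adjusted p = 0.0101).

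Other genes of eicosanoid synthesis, conversion and transport lay on both sides of 0. Of 32 other pathway genes in the files 17 were tested, of which 8 rose, 5 fell and 4 were not called, with a median log2 difference of 0.32. The share called is near the 68.3% of all tested genes. Enzymes that convert leukotriene C4 further rose most. Ggt1, the gamma-glutamyl transferase that makes leukotriene D4, went from 86.9 ± 24.7 to 11895 ± 1445, a 140-fold difference (limma adjusted p = 1.11e-07). Dpep1, the dipeptidase that makes leukotriene E4, was 40.6-fold higher (143 ± 64.7 against 5474 ± 736). Both are also general peptidases of the brush border. Slco2a1, a prostaglandin uptake carrier, was 8.84-fold higher (129 ± 30.6 against 1136 ± 224). Abcc1, which exports leukotriene C4, was 5.08-fold lower (434 ± 37.4 against 85.9 ± 16.0).

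Further genes of this list are named after their values were seen. Pla2g4a, the cytosolic phospholipase A2 that releases arachidonic acid, was 15.4-fold lower in CD24Neg (321 ± 73.3 against 21.2 ± 7.78, limma adjusted p = 2.85e-06). Hpgd, which inactivates prostaglandins, was 7.27-fold higher (290 ± 26.6 against 2247 ± 978), and Mgst2, a microsomal glutathione transferase that can also form leukotriene C4, 3.39-fold higher (991 ± 219 against 3321 ± 421). Lta4h, which diverts leukotriene A4 to leukotriene B4, was 1.78-fold higher (2520 ± 196 against 4483 ± 413). Hpgds, the prostaglandin D2 synthase of tuft and mast cells, was at 10.2 ± 5.61 and 9.94 ± 7.31 (adjusted p = 0.699). The 9 enterocyte markers tested, of 9, all rose in CD24Neg, beside 34% of all tested genes. The sum of these markers was 17653 to 30962 in CD24Mid against 455430 to 805410 in CD24Neg. The part of enterocytes in the differences of Ltc4s and its pathway was not tested.

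**Figure D2:**
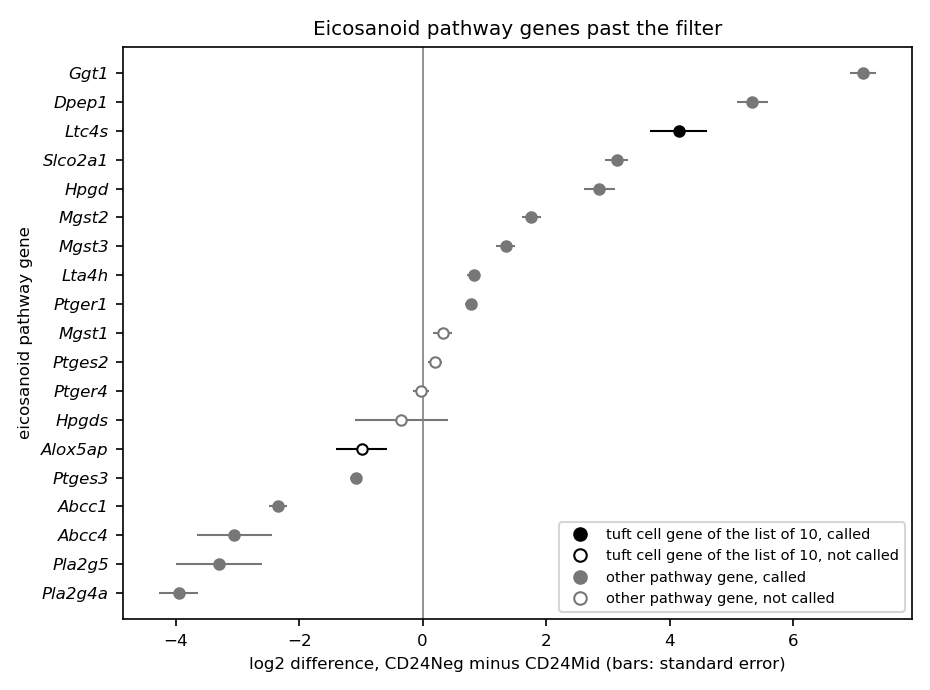
Log2 difference, CD24Neg minus CD24Mid, of the eicosanoid pathway genes past the filter, with the standard error from limma as bars (n = 4 libraries per fraction), filled points for genes called at an adjusted p under 0.05, open points for the others, and Ltc4s and Alox5ap in black. Ggt1, Dpep1 and Ltc4s lie at the upper end at 7.13, 5.34 and 4.15, and Pla2g4a at the lower end at -3.95.

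Other genes reported in tuft cells moved both ways. Of 33 such genes in the files 23 were tested, of which 7 rose, 9 fell and 7 were not called, with a median log2 difference of 0.54. This share is close to the background of 68.3%. Without CD24Neg library 4, 11 rose. The 4 with the lowest adjusted p are widely expressed in the epithelium: the microvillus genes Espn (41.7-fold higher) and Vil1 (6.39-fold higher), and Sox9 (8.34-fold lower) and Cd24a (6.91-fold lower), which mark crypt cells, Cd24a being the antigen of the sort. The following genes were named after their values were seen, and the first 5 were too low to test. Rgs13, a regulator of G protein signalling, was at 0.450 to 2.51 in CD24Mid and 3.19 to 12.9 in CD24Neg. Bmx, a Tec family kinase, was at 0.469 to 1.02 and at 1.54 to 6.82. In both genes the ranges did not overlap. Of all tested genes 63.8% had separate ranges, but neither gene passed the filter, so that share is not their background. The values of Rgs13 and Bmx are low, and 1 read was worth 0.583 to 0.697 in CD24Mid but 1.07 to 1.77 in CD24Neg. The same few reads therefore give a higher value in CD24Neg. Sh2d6, an adaptor gene, was at 1.37 to 5.35 and 4.95 to 8.08, and Sh2d7, another adaptor gene, at 5.49 ± 3.76 and 3.54 ± 3.69. Sucnr1, the succinate receptor, was at 0.429 or less in CD24Mid and at 0 to 2.80 in CD24Neg. The interleukin 25 receptor gene Il17rb did not pass (25.7 ± 7.57 against 41.3 ± 9.94, limma adjusted p = 0.0529). Spib, an Ets family transcription factor, fell (39.8 ± 8.62 against 16.7 ± 10.4, adjusted p = 0.0185), as did Nrep (33.2 ± 8.97 against 9.28 ± 4.59, adjusted p = 0.00154).

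Markers of other cell types differed between fractions and libraries. Of 13 markers of T cells and intraepithelial lymphocytes 12 were tested and 9 rose in CD24Neg, beside 34% of all tested genes. Cd8a was 12.7-fold and Gzma, a granzyme, 38.7-fold higher. In sum they reached 175 to 451 in CD24Mid, and 10553, 625, 1785 and 8164 in CD24Neg libraries 2, 4, 6 and 8. Plcg2 was highest in the same CD24Neg libraries, 2 and 8. Of the other members, Alox5ap was highest in library 2, and Dclk1, Avil and Ptgs1 were highest in library 8 but lowest in library 2. Pou2f3, Ltc4s, Trpm5 and Alox5 were highest in library 4, where the T cell sum was lowest. The part of lymphocytes in the Plcg2 difference was not tested. Leaving out libraries 2 and 8 is no such test, since they also held the highest Plcg2 values of CD24Neg. Ptprc, the gene of the depleted antigen CD45, was detected in every library at 33.5 to 551 (adjusted p = 0.135).

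Most tested B cell and mast cell markers went the other way, and myeloid markers were mixed. The counts below stand beside 34% of all tested genes called higher and 34.3% called lower in CD24Neg. Of 9 B and plasma cell markers 7 were tested, 3 of them only through their CD24Mid values, and 6 fell, with summed values of 3430 to 8235 against 498 to 840. Of 12 markers of mast cells, basophils and eosinophils 4 were tested, of which 3 fell and 1, Hdc, rose. These cells are known to express Alox5, Alox5ap, Ltc4s and Hpgds. In sum these markers reached 571 to 946 in CD24Mid against 101 to 235 in CD24Neg. Fcer1a, Prg2, Epx and Il1rl1 are listed at 0 in every CD24Neg library, but were low in CD24Mid too. There they were at 0 to 6.80, 4.04 to 10.9, 0 to 0.449 and 0.617 to 3.10. A single read was worth 1.07 to 1.77 in CD24Neg, so these zeros are weak evidence of a difference. The part of these cells in the values of Ltc4s, Alox5ap, Alox5 and Hpgds was not tested. Of 11 macrophage and other myeloid markers 8 were tested, with 1 higher, 3 lower and summed values of 487 to 832 against 276 to 790. Among epithelial types, all 7 tested stem cell markers and all 7 tested enteroendocrine markers fell, 1 of the latter passing the filter only through CD24Mid, 5 of 7 goblet cell markers rose, and of 7 Paneth cell markers 1 fell and 6 were not called.

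**Figure D3:**
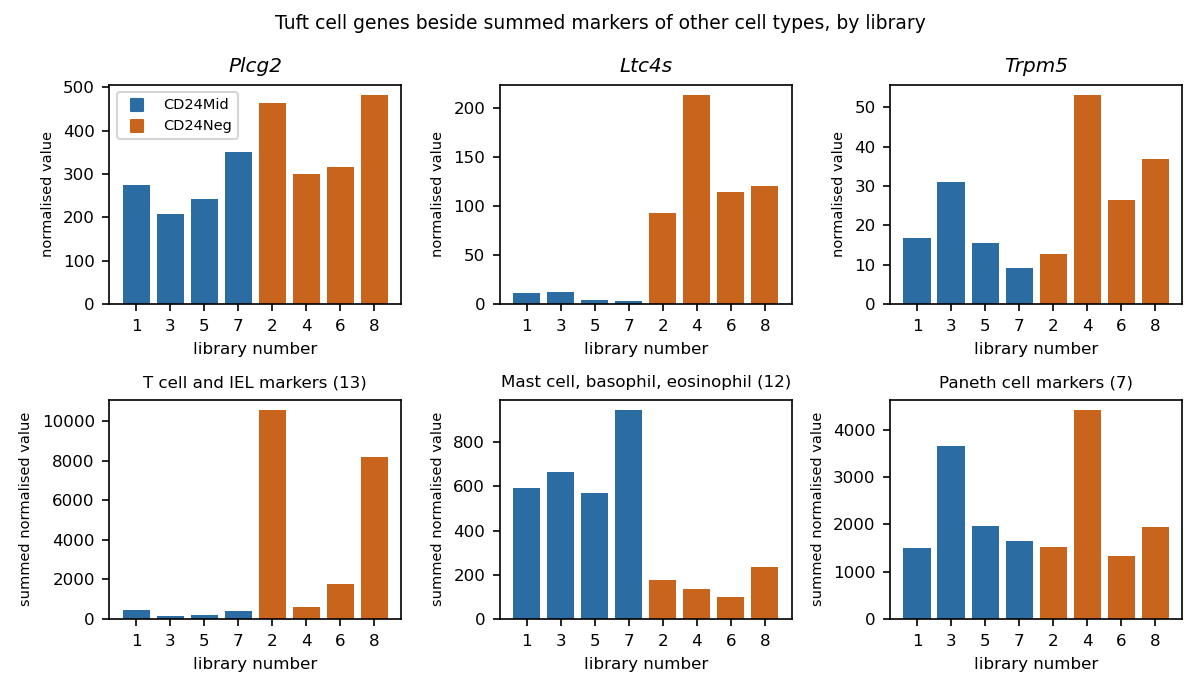
Bars from 0 show, for each library, the normalised values of Plcg2, Ltc4s and Trpm5 (top) and the summed values of markers of T cells and intraepithelial lymphocytes (IEL), of mast cells, basophils and eosinophils, and of Paneth cells (bottom), with CD24Mid in blue and CD24Neg in orange. Plcg2 and the T cell markers are highest in CD24Neg libraries 2 and 8, and Trpm5 and the Paneth cell markers in CD24Mid library 3 and CD24Neg library 4 of their fractions.

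Within a fraction, the members' highest and lowest values fell in particular libraries. CD24Mid library 3 was the highest of its fraction for 5 of 10 members: Pou2f3, Trpm5, Dclk1, Avil and Ltc4s. CD24Neg library 2 was the lowest of its fraction for 7 of the 9 members that had an order there: Pou2f3, Trpm5, Dclk1, Avil, Alox5, Ltc4s and Ptgs1. CD24Neg library 4 was the highest for Pou2f3, Trpm5, Alox5 and Ltc4s, and library 8 for Plcg2, Dclk1, Avil and Ptgs1. Reads outside mitochondrially encoded genes were estimated at 8.09, 8.97, 14.7 and 8.91 M in CD24Neg libraries 2, 4, 6 and 8. Paneth cell markers summed to 3662 in CD24Mid library 3 against 1506 to 1962 in the other CD24Mid libraries. They summed to 4418 in CD24Neg library 4 against 1328 to 1940 in the other CD24Neg libraries. Mmp7 of the Paneth list was instead highest in CD24Mid library 7 (270) and CD24Neg library 8 (72.9). Stem cell markers summed highest in CD24Mid library 3 (61432.5, with 60777.4 in library 7) and CD24Neg library 4 (5893, with 5521 in library 8). Most of these sums came from Olfm4, itself highest in CD24Mid library 7 (52511). Smoc2, Ascl2 and Msi1 were highest in CD24Mid library 3, but Lgr5 (876), Axin2 (2494) and Lrig1 (2578) in library 5. In CD24Neg, Axin2 (929) and Msi1 (32.9) were highest in library 8 and the other stem cell markers in library 4. Goblet cell markers summed highest in CD24Mid library 1 (77736) and CD24Neg library 4 (509121), though Tff3, Zg16, Spdef and Agr2 were highest in CD24Mid library 3. The part of depth, crypt base cells or other cell types in the order of the libraries was not tested.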

How the data were processed

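RNA libraries had been prepared with the TruSeq RNA kit from total RNA, per the labels' protocols. Each deposited file holds 1 normalised signal value per Ensembl gene. Bowtie 0.12.8 and the build NCBIM37 are named in the submitters' processing notes. The names of the deposited files point to MMSEQ as the estimation tool. No source used here gives its version, the annotation release or the scaling method. The deposited values carry decimals and were already scaled, with a median ratio to the geometric mean of 1.01 in every library. Low values lay on even steps, starting about 0.32 of a step below a whole number, and 1 step was read as 1 read. Only 32.9 to 37.1% of values below 100 steps came out whole within 0.1 of a step, so no count model was used.

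Values were centred on the median ratio, genes that reached 10 in 4 or more libraries were kept, and limma 3.58.1 in R 4.3.3 fitted log2(value + 0.5) with trend and robust variance, no covariates and 6 residual degrees of freedom. Fold changes are on the log2(value + 0.5) scale and understate low genes. The fit was tested on simulated data. Members under the filter were compared by exact permutation of log2 values in scipy 1.17.1. Symbols came from GENCODE M21, which matched 21223 identifiers. Exon overlaps come from that annotation, whose build differs from the files' build. The members and lists were chosen with earlier results of these data known. Named were all members, up to 4 genes of each list by adjusted p, the gene with the lowest adjusted p in a direction these miss, and the most abundant gene; for members, also the 3 genes most alike in their deviations from the fraction means. Other genes are said to be named after their values were seen. The alternatives were quantile normalization, no further scaling, scaling to totals, other filters and pseudocounts, and limma without trend and robust variance. Each library was also left out, and leaving out CD24Neg libraries 2 and 8 together was added after seeing the data.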

Additional observations from a re-analysis of the deposited data

Results flagged for a closer look

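Dclk1 in CD24Mid library 3 stood apart from the other CD24Mid libraries at 9.40, with 3.71 as the next value. The gap was 0.869 of the range of the fraction, above Dixon's critical value for 4 samples. It was the only such value in 19 groups of 4 checked, and chance alone flags about 1 in 20 groups. The value stands for about 15 reads.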

How the results depend on the processing

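Ltc4s kept its direction and its call in all 17 alternatives, and all 6 tested members kept their direction. Pou2f3 was also called in all 17, but it passed the filter only through CD24Mid, where it was high. Fits that left out libraries kept the genes of that filter, so they are no separate support for Pou2f3. Scaling to library totals that leave out the 20 most abundant genes left 2831 genes called higher in CD24Neg, in place of 4386. It gave log2 differences of 0.10 for Plcg2 (adjusted p = 0.700, call ended) and -1.40 for Alox5ap (adjusted p = 0.0113, called), and 0 chemosensory genes called higher and 1 lower. The Plcg2 call also ended at 0.53 with no filter (adjusted p = 0.113) and in limma without trend and robust variance (0.0614). It ended at 0.24 without CD24Neg libraries 2 and 8 (0.324). Alox5ap was called at -0.95 with a pseudocount of 1 (0.0499) and at -0.99 without trend and robust variance (0.0291). Without trend and robust variance 2 chemosensory genes were called higher, and with quantile normalization 1 was lower. Gfi1b moved to -3.06 with a pseudocount of 0.1.

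Leaving out 1 library at a time gave log2 differences of 0.47 to 1.15 for Trpm5, 0.48 to 1.10 for Avil, 0.41 to 0.66 for Plcg2 and -1.24 to -0.78 for Alox5ap. It gave 1 to 2 chemosensory genes called higher and 0 to 1 lower, and 6 to 11 further tuft markers called higher. The uncalled differences of Alox5 (-0.18 to 1.68) and Ptgs1 (-0.97 to 0.34) changed sign. No paired analysis was run, because the labels do not say which libraries of the fractions belong together. Paneth marker sums were highest in CD24Mid library 3 and CD24Neg library 4. T cell marker sums were highest in CD24Mid libraries 1 and 7 and CD24Neg libraries 2 and 8. Whether libraries with consecutive numbers are pairs is not stated and was not tested, and the unpaired fit uses no such pairing. Depth limits Gfi1b, Alox5, Ptgs1 and Dclk1, which rest on at most 19 reads per library. It also limits Alox5ap and Pou2f3, which rest on at most 9 and 5 reads in CD24Neg libraries. Beyond the causes given by construction, the cause of each change was not tested.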

Other observations

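Deviations of log2 values from the mean of each fraction were compared with those of all tested genes over the 8 libraries, as a description. With so few libraries and so many genes, high likeness is common, and the libraries share depth and cell composition. The genes most like Plcg2 were Evi2 (r = 0.981), Ptpn22 (0.976) and H2-Q7 (0.972). Evi2 and Ptpn22, a phosphatase of antigen receptor signalling, are genes of leukocytes, and H2-Q7 has near-identical relatives that can share its reads. The genes most like Ltc4s were Gm4540 (0.974), Gm21988 (0.962) and Rnf167 (0.959). Those most like Pou2f3 were Tmem51os1 (0.977), Adat1 (0.969) and Hsd3b2 (0.968), and those most like Trpm5 were Bambi-ps1 (0.995), Nsun5 (0.991) and Mrrf (0.979). For Avil they were Gm15601 (0.977), Gm12689 (0.948) and Bbip1 (0.939), and for Alox5ap Pttg1 (0.991), 6330403L08Rik (0.978) and Slc39a13 (0.971). Among the 6 tested members themselves, r was 0.881 for Pou2f3 and Trpm5, 0.797 for Ltc4s and Trpm5, 0.590 for Ltc4s and Pou2f3, and -0.777 for Plcg2 and Pou2f3. The pairs not named lay between -0.685 (Plcg2 and Trpm5) and 0.479 (Avil and Trpm5). Pou2f3 rested on about 0 to 5 reads in the CD24Neg libraries.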
